A study of Mus musculus with 20 samples.

Results

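The messenger RNAs of 10 blood-brain barrier and vascular genes were followed in the cerebral cortex of aged APOE4 mice fed a ketogenic diet (KD) or a control diet (CD). The genes were chosen by name: Cldn5, Ocln, Tjp1, Pecam1, Cdh5, Flt1, Slc2a1, Mfsd2a, Abcb1a and Pdgfrb, that is 10 of the 23413 gene names counted, and all 10 passed the filter on low counts that left 15660 genes for testing. Each of the 20 libraries was made from a separate mouse. Females numbered 5 on CD and 4 on KD, and males 5 on CD and 6 on KD. All mice carried the humanized APOE4 knock-in, the Apoe allele tm1.1(APOE*4)Adiuj in a B6(SJL) line, so there was no group with another APOE allele. The diets were fed in equal calories from 10 months of age for 12 months, and cortex was taken at 22 months after an overnight fast. The labels call the control diet SD.

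The blood-brain barrier is formed by the endothelial cells of brain capillaries, which are sealed to each other by tight and adherens junctions, carry little vesicular traffic and move nutrients through dedicated carriers. Wnt and beta-catenin signalling keeps this state in the endothelium, and pericytes, recruited through PDGF-B and its receptor, wrap the capillary wall. Brain glucose uptake depends on the endothelial carrier GLUT1, while ketone bodies enter through monocarboxylate carriers, and a ketogenic diet replaces carbohydrate with fat.

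Library size ran from 12207161 to 29109990 counts, with 21015275 to 29109990 counts in the 10 libraries of the lower library numbers (library series 1) and 12207161 to 17697342 counts in the 10 of the higher numbers (library series 2). Each diet and sex group had libraries in both series, and the series was a term of the fit. Xist, transcribed from the inactive X chromosome, was at 319 to 1364 counts-per-million (CPM) in the 9 female libraries and at most 7.59 CPM in the 11 male ones. The Y-linked gene Ddx3y was at 164 to 241 CPM in males and at most 1.64 CPM in 8 female libraries, while the CD female library E228 held 14.01 CPM. Values of the sex comparison are therefore also given without E228.

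In these bulk samples the endothelial marker Cdh5 and the pericyte marker Pdgfrb were found in every library, at 4.27 to 11.6 CPM and 9.77 to 24.8 CPM. A lower count from fewer vascular cells and a lower count from less RNA per vascular cell cannot be told apart in such samples. Levels between genes were compared per length, as CPM per kilobase of merged exons, mean ± SD over the 20 libraries. Tjp1, the scaffold that ties claudins and occludin to actin, stood highest at 22.9 ± 2.38 CPM per kilobase and exceeded Slc2a1 in all 20 libraries. Slc2a1, which encodes GLUT1, followed at 11.1 ± 3.41, the tight junction claudin Cldn5 at 10.3 ± 3.21 and the drug efflux pump Abcb1a at 8.73 ± 1.74 CPM per kilobase. Slc2a1 lay above Cldn5 in 11 of 20 libraries and Cldn5 above Abcb1a in 15 of 20, so the order of these neighbours was not fixed. The tight junction protein occludin, Ocln, was at 4.10 ± 0.451 CPM per kilobase and lay below Abcb1a in all 20 libraries. Pecam1, an adhesion molecule of endothelial contacts, was at 3.86 ± 0.876, the lysolipid transporter Mfsd2a at 3.61 ± 1.21, the VEGF receptor Flt1 at 3.20 ± 0.493 and the PDGF receptor of pericytes Pdgfrb at 3.04 ± 0.740 CPM per kilobase. Neighbours in this group exceeded each other in 11 to 16 of 20 libraries. Their order also depends on the length used. The merged exons of Flt1 and Pecam1 cover 13504 and 6228 bases, while their longest transcripts have 6895 and 3441. For Ocln these lengths are 4222 and 4052 bases and for Mfsd2a 2250 and 2151. Per base of the longest transcript, Pecam1 and Flt1 would therefore stand above Ocln and Mfsd2a. VE-cadherin, Cdh5, was lowest at 1.62 ± 0.467 CPM per kilobase, below Pdgfrb in all 20 libraries. Tjp1 and Ocln are also made by other brain cells, and Tjp1 varied least between libraries, with a coefficient of variation of 10.4%, followed by Ocln with 11.02%. Mfsd2a, Cldn5 and Slc2a1 varied most, with 33.4%, 31.0% and 30.7%.

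The starts of Slc2a1 and Mfsd2a, the pair of members with the highest correlation before the base composition of transcripts was taken into account, and of Tjp1, which then had a negative correlation with both, are shown as the 250 bases before the RefSeq transcription start on GRCm38, read 5′ to 3′ on the strand of the gene. Capitals mark matches on either strand to the GC box GGGCGG, to the hypoxia response core ACGTG and to the LEF and TCF site CTTTGA. The RefSeq start of Tjp1 lies inside the longer span that GENCODE gives the gene, and that of Abcb1a lies upstream of the GENCODE start, with its window ending at base 8567090 of chromosome 5.
Slc2a1, chr4:119108495-119108744, plus strand: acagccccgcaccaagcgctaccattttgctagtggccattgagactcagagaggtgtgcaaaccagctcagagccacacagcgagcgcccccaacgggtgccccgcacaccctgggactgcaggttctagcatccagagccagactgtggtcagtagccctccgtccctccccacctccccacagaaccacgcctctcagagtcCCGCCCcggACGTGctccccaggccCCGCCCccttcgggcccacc
Mfsd2a, chr4:122961189-122961438, minus strand: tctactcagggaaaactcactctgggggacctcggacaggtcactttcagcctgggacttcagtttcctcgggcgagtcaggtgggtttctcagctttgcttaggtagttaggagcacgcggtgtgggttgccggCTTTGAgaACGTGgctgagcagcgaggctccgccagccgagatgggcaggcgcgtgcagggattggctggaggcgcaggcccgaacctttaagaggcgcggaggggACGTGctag
Tjp1, chr7:65371245-65371494, minus strand: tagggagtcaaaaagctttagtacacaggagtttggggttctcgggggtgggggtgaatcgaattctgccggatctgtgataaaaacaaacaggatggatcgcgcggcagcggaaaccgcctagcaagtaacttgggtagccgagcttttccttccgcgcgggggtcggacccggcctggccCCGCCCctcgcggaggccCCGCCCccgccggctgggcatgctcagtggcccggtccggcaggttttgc

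RefSeq starts were matched for 7 of the 10 members. GC content of these 250 bases was 66.4% for Slc2a1, 61.6% for Mfsd2a and 63.2% for Tjp1, beside a median of 52.4% over 32851 promoters. The GC box was found 2 times in Slc2a1, 2 times in Tjp1 and not in Mfsd2a, and 32.7% of all promoters held it. The hypoxia response core was found 1 time in Slc2a1, 2 times in Mfsd2a and not in Tjp1, and 16.6% of promoters held it. The LEF and TCF site was found 1 time in Mfsd2a and 2 times in Abcb1a, beside 13.8% of promoters, and the ETS site CAGGAAG, held by 10.8%, in none of the 7. These matches describe the letters of the windows only.

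Positions of the genes are given on GRCm38, with the GENCODE M21 span of each except Pdgfrb. Cldn5 is a gene of a single exon on chromosome 16 (18776847 to 18778262, plus strand). Ocln lies on chromosome 13 (100496507 to 100552718, minus strand), Tjp1 on chromosome 7 (65296165 to 65527781, minus strand) and Pecam1 on chromosome 11 (106654217 to 106750628, minus strand). Cdh5 lies on chromosome 8 (104101625 to 104144511, plus strand) and Pdgfrb on chromosome 18. Chromosome 5 carries both Flt1 (147561604 to 147726011, minus strand) and Abcb1a (8660077 to 8748575, plus strand). Chromosome 4 carries both Slc2a1 (119108711 to 119137983, plus strand) and Mfsd2a (122946850 to 122961188, minus strand). Abcb1a and Slc2a1 share exonic bases with the opposite-strand genes Gm42686 and Gm12868, and Abcb1a has a related paralog, Abcb1b. Their counts may therefore be less certain than those of the other members, which was not tested.

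The diet comparison asked whether KD changed these genes within each sex. No member passed the threshold, an adjusted p of at most 0.1 with a change of at least 1.5-fold in edgeR's quasi-likelihood test, in females or in males, where 0.0447% and 0% of the 15660 genes passed. The count of members was also 0 with DESeq2 and with edgeR's likelihood ratio test. At an unadjusted p under 0.05 no member was called either, against a background of 11.4% of all genes in females and 3.56% in males. No member had KD libraries lying wholly above or below the CD libraries of the same sex, which 2.1% of genes had in females and 0.217% in males. Over both sexes together 0.268% of genes passed the threshold and 13.9% had an unadjusted p under 0.05, again with no member among them. The difference of the diet effect between the sexes passed the threshold for 0% of genes and had an unadjusted p under 0.05 for 2.14%, with no member among either.

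**Figure D1:**
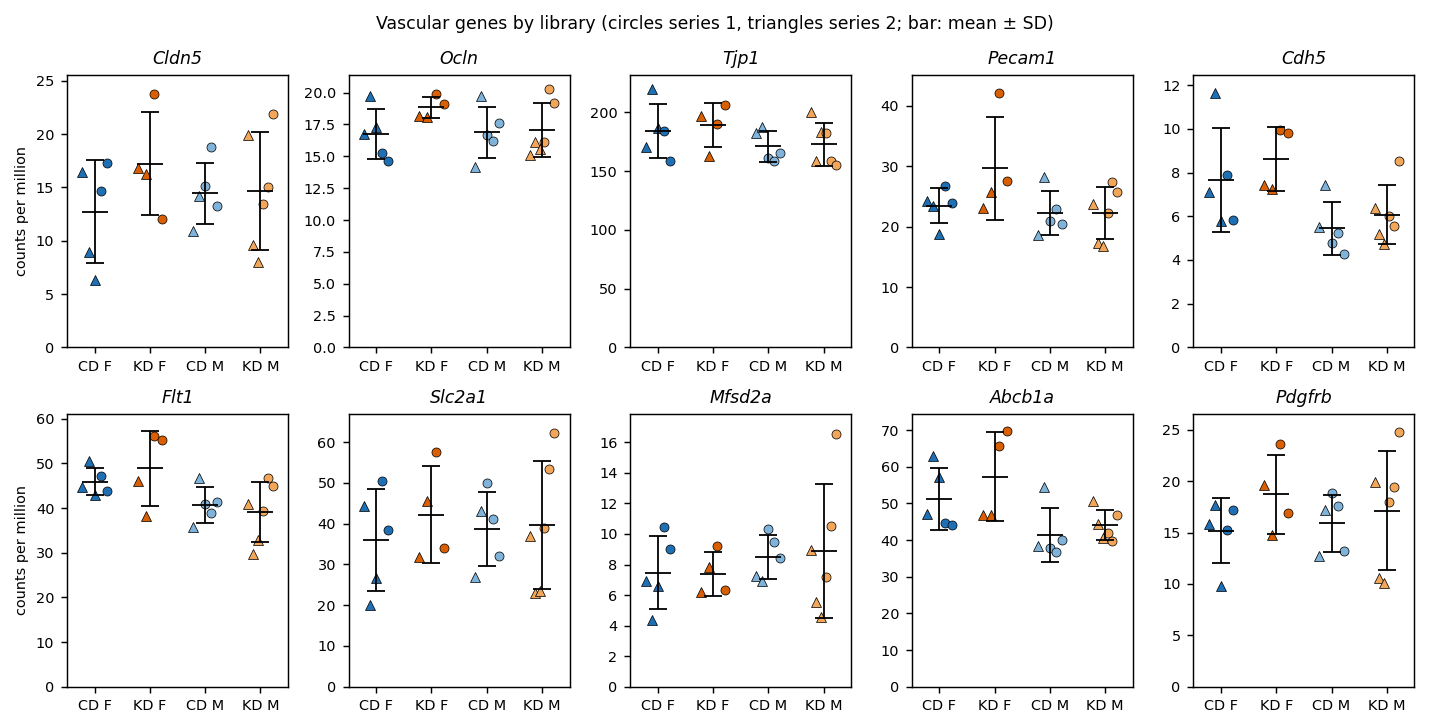
CPM of the 10 genes (vertical axes from 0) in the 20 libraries by diet and sex group, with circles for library series 1, triangles for series 2 and bars for the mean ± SD. For each gene the KD libraries overlap the CD libraries of the same sex.

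Among the junction genes, Cldn5 had the largest difference in females. In CD females it was at 14.7, 17.3, 8.93, 6.35 and 16.4 CPM (E62, E67, E249, E265 and E228), and in KD females at 23.7, 12.1, 16.9 and 16.3 CPM (E61, E68, E207 and E227). The CD libraries E249 and E265 were the lowest and the KD library E61 the highest, while the other 6 lay between 12.1 and 17.3 CPM in both groups. The fitted log2 difference, KD minus CD, was 0.36 ± 0.26 (SE), a fold of 1.29 with a 95% interval of 0.878 to 1.88 and an adjusted p of 0.677 by edgeR. Within series 1 it was 0.11 and within series 2 it was 0.58. In males CD libraries held 15.1, 18.8, 13.3, 10.9 and 14.2 CPM and KD libraries 8.05 to 21.9 CPM with a median of 14.2, so that the KD range enclosed every CD library.

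Pecam1 was at 26.7, 24.0, 23.5, 18.7 and 24.2 CPM in CD females and 42.2, 27.6, 23.1 and 25.8 CPM in KD females. The KD library E61 stood far above the rest, and the log2 difference of 0.25 ± 0.15 (SE) with all libraries became 0.09 without it. In males Pecam1 was at 20.9, 22.9, 20.4, 18.7 and 28.2 CPM on CD and 16.8 to 27.4 CPM, median 23.0, on KD. Ocln was at 15.3, 14.7, 19.7, 17.3 and 16.7 CPM in CD females and 19.9, 19.1, 18.2 and 18.1 CPM in KD females, 16.7 ± 1.99 against 18.8 ± 0.856 CPM (mean ± SD). The 4 KD females lay close together and only the CD library E249 reached their range, with a log2 difference of 0.11 and a fold interval of 0.904 to 1.29. Tjp1 was at 184, 159, 220, 187 and 171 CPM in CD females and 190, 206.6, 197 and 163 CPM in KD females, with a fold interval of 0.859 to 1.16. Cdh5 and Flt1 also overlapped, with fold intervals in females of 0.798 to 1.48 and 0.847 to 1.19.

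Of the transporters, Slc2a1 was at 50.3, 38.3, 19.99, 26.8 and 44.2 CPM in CD females and 57.5, 34.0, 31.7 and 45.6 CPM in KD females. Its CD libraries spread over the whole range of the KD libraries except for the top one, E61, and the fold interval was 0.785 to 1.56. In males it was at 50.0, 41.1, 32.0, 27.0 and 43.1 CPM on CD and 23.0 to 62.2 CPM, median 37.9, on KD. Mfsd2a was at 10.5, 9.04, 4.34, 6.59 and 6.95 CPM in CD females and 9.20, 6.33, 6.18 and 7.83 CPM in KD females. It was one of only 2 members with a lower fitted value on KD in females, a log2 difference of -0.09 and a fold interval of 0.671 to 1.31, the other being Tjp1.

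Abcb1a was at 44.7, 44.2, 62.9, 57.3 and 47.1 CPM in CD females and 65.7, 69.8, 46.9 and 46.8 CPM in KD females. The order of the diets differed between the library series. In series 1 the KD libraries E61 and E68 were above the CD libraries E62 and E67, a log2 difference of 0.57 with an unadjusted p of 0.00171 by edgeR. In series 2 the KD libraries E207 and E227 were below the 3 CD libraries, a log2 difference of -0.32 with an unadjusted p of 0.113. In the fit of both series the difference was 0.12 with a fold interval of 0.873 to 1.36. Whether the series differ in the diet effect was not tested.

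Pdgfrb, the pericyte receptor, was at 15.3, 17.2, 17.7, 9.77 and 15.9 CPM in CD females and 23.6, 16.9, 19.6 and 14.7 CPM in KD females, a log2 difference of 0.21 ± 0.20 (SE) and a fold interval of 0.864 to 1.55. In males it was at 18.9, 17.6, 13.2, 12.7 and 17.2 CPM on CD and 10.1 to 24.8 CPM, median 18.7, on KD. The groups overlapped in both sexes.

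**Figure D2:**
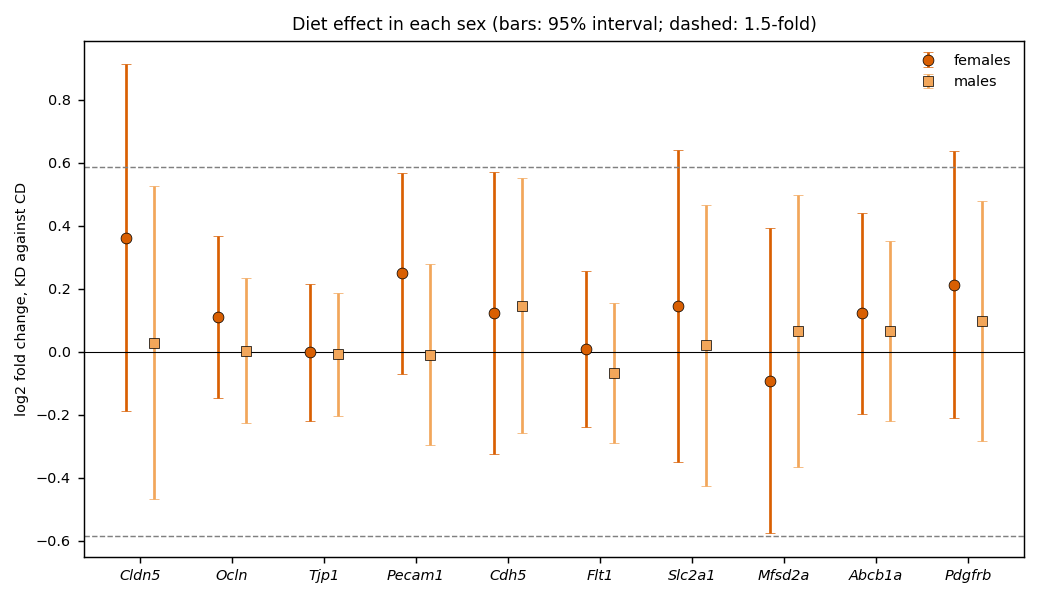
Log2 fold change of KD against CD (vertical axis) for the 10 genes in females (circles) and males (squares), with bars for the 95% interval and dashed lines at a 1.5-fold change. Every interval crosses 0, and the upper bound passes 1.5-fold for Cldn5, Slc2a1 and Pdgfrb in females.

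For 7 of the members the 95% interval in females lay within a 1.5-fold change in both directions, the exceptions being Cldn5, Slc2a1 and Pdgfrb. In males the intervals of all 10 members lay between 0.723-fold and 1.46-fold, with log2 differences of -0.07 to 0.15. The median log2 difference of the 10 members was 0.12 in females, with 8 fitted higher and 2 lower, beside 0.013 over all genes tested. In males it was 0.025, with 7 higher and 3 lower. None of these directions passed a test. Recovery was checked in simulated counts with 200 changed genes, at an adjusted p of at most 0.1 without the fold condition. The test recovered 25% of 1.5-fold and 66% of 2-fold changes in females, and 40.5% and 75.5% in males. The simulated counts held no series difference and drew each gene independently, unlike the data. Recovery at the full threshold was not computed.

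Other vascular genes, taken from lists by role, gave the same count at the threshold with all libraries. None of the genes tested in the junction, transporter, endothelial identity, Wnt, VEGF, caveolae, activation, arterial and venous, pericyte, smooth muscle, fibroblast or astrocyte endfoot lists passed in either sex. Without the CD female E249, where 6.66% of all genes passed in females, 9 of these lists held 1 to 3 genes that passed, among them Cd34 with -1.49, Wnt7a with 0.92, Nrp2 with 1.54 and Cgnl1 with 0.71. Without the KD female E227, where 5.68% passed, Cd34 with -1.87 and the astrocyte gene Agt with 2.44 passed. Of 25 endothelial identity genes, 17 were fitted higher and 8 lower in KD females, with a median log2 difference of 0.055. At an unadjusted p under 0.05, which 11.4% of all genes met in females, none was higher and 1 was lower. That gene was Cd34, a sialomucin of endothelial cells, with a log2 difference of -1.25, an unadjusted p of 0.0062 and an adjusted p of 0.240 by edgeR. Of 20 transporters and receptors, 2 were higher and 1 lower in KD females, beside 11.4% of all genes. Slco2b1, an organic anion carrier, differed by 0.38 and Tfrc, the transferrin receptor that brings in iron, by -0.36 in females and -0.32 in males on the log2 scale. Of the 18 Wnt genes 2 were higher on KD in females at an unadjusted p under 0.05 and none lower. They were the ligand Wnt7a and the transcription factor Tcf7, both with a log2 difference of 0.70. Of all 15660 genes, 918 were higher and 862 lower at that p. Leaving out 1 library gave 0 to 3 transporters higher and 0 to 3 lower, the highest counts without E228 and without E227. It gave 0 to 6 Wnt genes higher, the most without E249. The shares of all genes at that p with a library left out are not reported here.

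All 11 smooth muscle genes had a higher fitted value on KD in females, with a median log2 difference of 0.40, and all 11 in males, with a median of 0.37, but only 1 and 0 of them had an unadjusted p under 0.05. The male value rested on the KD library E64, which held 177 CPM of these genes beside 51.4 to 70.4 CPM in the other 5, and without it 6 genes were fitted higher and 5 lower, with a median of 0.0018. All 12 fibroblast and meningeal genes were fitted higher in females, median 0.36, and in males, median 0.74, with 0 and 2 at an unadjusted p under 0.05. The latter were the matrix genes Dcn, with a log2 difference of 1.80, and Col1a1, with 1.28. E64 held 656 CPM of the list beside 178 to 349 CPM in the other 5 KD males, and without it 9 genes were fitted higher and 3 lower in males, with a median of 0.19 and none at that p, while without the CD male E264 10 had that p. In females 4 genes of each list had that p without E249, where 6.66% of all genes passed the threshold, beside 0.0447% with all libraries. The shares of all genes at that p without E264 and without E249 are not reported here. Of the 17 pericyte genes, 10 were fitted higher and 7 lower in females, none at an unadjusted p under 0.05.

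With all libraries no marker of another region or cell type passed the threshold for diet in either sex. The 10 striatal markers summed to 239 to 1137 CPM in CD females and 340 to 3144 CPM in KD females, and all 10 were fitted higher, 8 of them at an unadjusted p under 0.05. That count was 2 or 3 without E62, E67, E265 or E228 and 0 without the KD female E207. At the threshold 10 striatal markers passed without E249, and 2, Adcy5 and Ppp1r1b, without E59 and without E227. The 10 neuron markers summed to 6619 to 8952 CPM in CD females and 6438 to 7299 CPM in KD females. The 10 microglia markers summed to 314 to 440 CPM and 410 to 597 CPM in the same groups. Of the neuron markers 1 passed higher and 3 lower without E249, where 6.66% of all genes passed. Among them were Gad2 and Slc17a7, with log2 differences of 1.73 and -0.79. Without E227, where 5.68% passed, 1 was higher and 2 lower, among them Gad2 with 1.48 and Slc17a7 with -1.02. In females 1 astrocyte marker and 1 choroid plexus marker also passed without E249, both higher on KD. In males the 10 choroid plexus markers summed to 15.6 to 61.2 CPM on CD and to 21.05 to 47.2 CPM in 5 of the KD libraries, while the KD library E59 held 2413 CPM. E59 also held 3715 CPM of the striatal markers, beside 269 to 399 CPM in the other 5 KD males. In males 7 choroid plexus genes were fitted higher on KD, 6 of them at an unadjusted p under 0.05, and without E59 4 of 6 were, none at that p. Of the 9 blood cell markers, the 4 globin genes Hba-a1, Hba-a2, Hbb-b1 and Hbb-b2 were listed at 0 in every library. The 10 oligodendrocyte markers summed to 2779 to 4935 CPM in CD males and 1530 to 4397 CPM in KD males, and all 10 were fitted lower on KD, 3 at an unadjusted p under 0.05, or 1 without E64 and 6 without E59. In females all 10 were fitted higher on KD, with a median log2 difference of 0.25 and none at that p. The part of these cell types in the values of the barrier genes was not tested.

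Females and males were then compared over both diets. No member passed the threshold of adjusted p and fold, which 0.134% of genes passed. At an unadjusted p under 0.05, which 13.6% of genes met, 4 of the 10 members were called, Cdh5, Abcb1a, Flt1 and Pecam1. All 4 were higher in females, a direction met by 8.59% of genes at that p. They encode a cadherin, an efflux pump, a growth factor receptor and an adhesion molecule. Of the other endothelial members, the claudin Cldn5 and the carriers Slc2a1 and Mfsd2a were not called.

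Cdh5 was at 7.90, 5.84, 11.6, 5.80 and 7.12 CPM in CD females, 9.94, 9.82, 7.43 and 7.24 CPM in KD females and 4.77, 5.26, 4.27, 5.52 and 7.41 CPM in CD males. In KD males it ran from 4.74 to 8.53 CPM with a median of 5.78. The 3 highest libraries were female and the 7 lowest were male, with overlap between 5.80 and 8.53 CPM. The log2 difference, females minus males, was 0.49 ± 0.14 (SE), a fold of 1.40 with a 95% interval of 1.14 to 1.72, an unadjusted p of 0.00306 and an adjusted p of 0.187 by edgeR.

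Abcb1a had 44.2 to 69.8 CPM with a median of 47.1 in the 9 females and 36.7 to 54.5 CPM with a median of 40.6 in the 11 males. Its log2 difference was 0.33 ± 0.10 (SE), a fold of 1.25 with an interval of 1.08 to 1.45 and an adjusted p of 0.201 by edgeR. Flt1 had 38.2 to 56.2 CPM, median 46.1, in females and 29.6 to 46.8 CPM, median 41.0, in males. Its log2 difference was 0.25 ± 0.08 (SE), a fold of 1.19 with an interval of 1.06 to 1.34 and an adjusted p of 0.208 by edgeR. Pecam1 had 18.7 to 42.2 CPM, median 24.2, in females and 16.8 to 28.2 CPM, median 22.3, in males. Its fold was 1.19 with an interval of 1.02 to 1.38 and an adjusted p of 0.301 by edgeR. For all 4 genes the sexes overlapped. The other 6 members had log2 differences from -0.16 for Mfsd2a to 0.10 for Tjp1, each with an unadjusted p above 0.05.

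**Figure D3:**
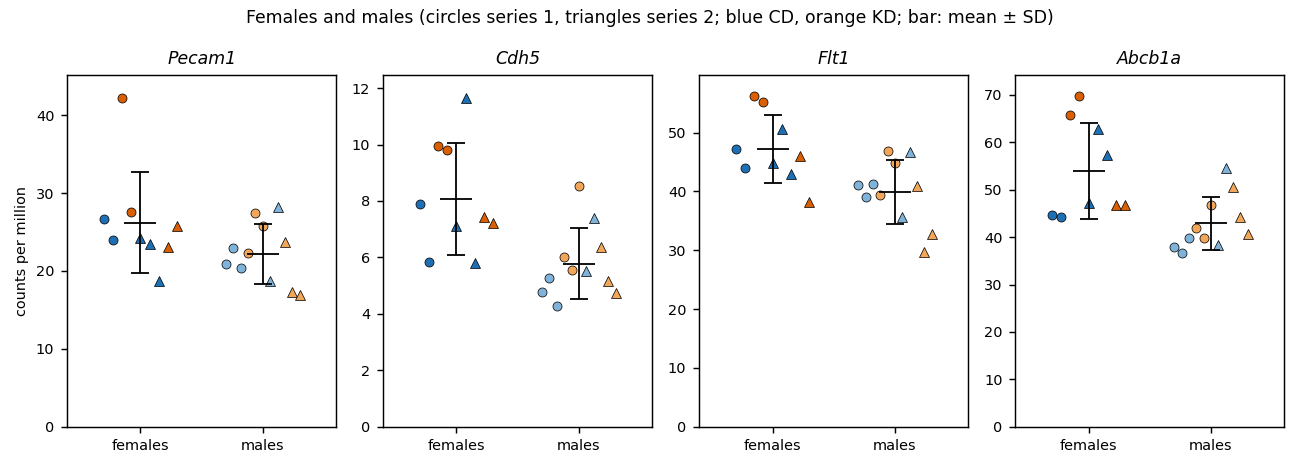
CPM (vertical axes from 0) of Pecam1, Cdh5, Flt1 and Abcb1a in the 9 female and 11 male libraries, with circles for library series 1, triangles for series 2, blue for CD, orange for KD and bars for the mean ± SD. The female mean is above the male mean for each gene and the sexes overlap.

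Without the library E228 the log2 differences were 0.50 for Cdh5, 0.35 for Abcb1a, 0.25 for Flt1 and 0.23 for Pecam1, and 4 members still had an unadjusted p under 0.05. Cldn5 and Slc2a1 then had -0.03 each, from 0.05 and 0.04 with all libraries, and the other 4 members ran from -0.18 for Mfsd2a to 0.11 for Tjp1. Without the KD female E61 the value of Pecam1 was 0.16 with an unadjusted p of 0.119 and 3 members were called. Within series 1 the log2 differences of Cdh5, Abcb1a, Flt1 and Pecam1 were 0.53, 0.42, 0.24 and 0.34, each with an unadjusted p under 0.05. Within series 2 they were 0.38, 0.15, 0.22 and 0.12, with unadjusted p of 0.107 to 0.437, and no member was called. Whether the sex difference differed between the series was not tested. In both series the female mean was the higher one for each gene. For Cdh5 it was 8.37 against 5.73 CPM in series 1 and 7.84 against 5.85 CPM in series 2.

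The endothelial identity list, which holds none of the 10 members, was fitted higher in females for 23 of its 25 genes, with a median log2 difference of 0.22, where 7963 of all 15660 genes were fitted higher, with a median of 0.0031. At an unadjusted p under 0.05, at which 8.59% of all genes were higher, 8 of its genes were higher and none lower, from the VEGF receptor Kdr, with a log2 difference of 0.26, to the clotting factor Vwf, with 0.54. The others were Cd93, Clec14a, Emcn, Itm2a, Ptprb and Sox17. Ptprb, the phosphatase that acts on VE-cadherin and Tie2, differed by 0.48 with an unadjusted p of 0.00286. Of the 18 Wnt genes, 7 were higher and none lower, among them Tspan12, a Norrin co-receptor, with 0.41, the Norrin gene Ndp with 0.41 and the Wnt inhibitor Apcdd1 with 0.33. Of the 17 pericyte genes 3 were higher and none lower, Rgs5 with 0.24, Notch3 with 0.43 and Zic1 with 1.43. The junction list had 2 of 14 higher, Jam2 with 0.48 and Cgnl1 with 0.42, and the transporter list had Slco1a4 higher with 0.33 and Slc3a2 lower with -0.22. Leaving out 1 library gave 2 to 11 endothelial identity genes higher at that p, the fewest without the KD female E61 or E68 and the most without the KD female E207 or the CD male E264, with 4 and 5 without the CD females E249 and E265. The shares of all genes at that p in those fits are not reported here. No gene of these lists passed the threshold between the sexes with all libraries. The Wnt gene Tcf7 passed without E59, with 0.73, where 1.32% of all genes did, and also without E227, where 5.1% did, together with Zic1 and, lower in females, Cd34. Without E228 the numbers higher and lower at that p were 8 and 0 for the endothelial identity list, 7 and 0 for the Wnt, 3 and 0 for the pericyte, 2 and 0 for the junction and 2 and 1 for the transporter list. Vwf then had a log2 difference of 0.55 with an unadjusted p of 0.0555. With all libraries 3 of the 11 caveolae genes were higher at an unadjusted p under 0.05 and 1 was lower. They were Cav1 with 0.31, Sdpr with 0.33 and Timp3 with 0.57, and Cav2 with -0.40. None passed the threshold with all libraries, and 1 gene of that list passed without E227, higher in females.

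With all libraries no marker of another region or cell type passed the threshold between the sexes. All 10 striatal markers were fitted higher in females, with a median log2 difference of 1.09, and 3 had an unadjusted p under 0.05. Without the KD male E59 their median was 1.84, 10 had that p and 7 passed the threshold, among them Penk with 2.51, Tac1 with 2.24 and Drd1a with 1.73. Without E227 Penk and Tac1 passed, and without E228 the median was 1.08 and 2 markers had that p. All 10 microglia markers were fitted higher, 4 of them at that p, and 8 of 10 without E228, 3 of them at that p. Of the 10 neuron markers 2 were fitted higher, Gad2 with 1.16 and Gad1 with 0.48, both at that p, and 8 lower, of which Slc17a7 with -0.48 had that p. Gad2 passed the threshold without E59 and without E227, and Slc17a7 without E227. Of the 10 astrocyte markers 6 were fitted higher and 4 lower, with Aqp4 at 0.39 and that p, and Kcnj10 of the endfoot list had 0.52 with an unadjusted p of 0.00522. Of the 7 choroid plexus genes tested, 2 were fitted higher and 5 lower in females, 2 of them, Ttr and Folr1, at an unadjusted p under 0.05 with log2 differences of -3.57 and -2.69. Without E59, 6 passed the filter on low counts, 5 of them fitted higher and 1 lower, and Ttr with -1.75 and Clic6 with 2.19 passed the threshold. Ttr and Folr1 passed without E227. Without E228 the values of Ttr and Folr1 were -3.64 and -2.74. Their part in the sex difference of the endothelial genes was not tested.

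Beyond diet and sex, the members differed between the library series. Mfsd2a and Slc2a1 were lower in series 2 at an adjusted p of at most 0.1, which 15.6% of all genes were, and no member also reached 1.5-fold, which 7.24% of genes did in one direction or the other. Slc2a1 ran from 32.0 to 62.2 CPM in the 10 libraries of series 1 and from 19.99 to 45.6 CPM in the 10 of series 2, a log2 difference of -0.47 ± 0.16 (SE) with an adjusted p of 0.0393 by edgeR. Mfsd2a ran from 6.33 to 16.6 CPM and from 4.34 to 8.96 CPM, a log2 difference of -0.52 ± 0.16 (SE) with an adjusted p of 0.0206 by edgeR. The ranges overlapped for both genes. The other 8 members had adjusted p above 0.1.

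Members also varied together from mouse to mouse. After the group and series means were removed, 36 of the 45 pairs of members had a correlation above 0 over the 20 libraries, with a median r of 0.38. The permutation test shuffled the values left after that removal and made no allowance for it, so its p tend to be too small. Slc2a1 and Mfsd2a, both carriers of the capillary endothelium, had the highest r of 0.78 (rho 0.77), with permutation p of 4e-05 and 0.00015 and adjusted p over the 45 pairs of 0.0018 and 0.00675. It was 0.86 without the 2 libraries farthest from the median, 0.84 within series 1 and 0.75 within series 2. Cldn5 and Pdgfrb followed with r of 0.72 (rho 0.71), permutation p of 0.00039 and 0.00062 and adjusted p of 0.00877 and 0.0093. That r was 0.63 without 2 libraries and 0.69 and 0.74 within the series. Flt1 and Abcb1a had r of 0.70 (rho 0.74), permutation p of 0.00091 and 0.00036 and adjusted p of 0.0102 and 0.0081. It was 0.73 without 2 libraries and 0.67 and 0.71 within the series.

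The lowest values all involved Tjp1, whose start is printed with those of Slc2a1 and Mfsd2a. With Mfsd2a its r was -0.57 (rho -0.48), permutation p of 0.00899 and 0.0357, adjusted p of 0.0255 and 0.0731, and -0.51 without 2 libraries. With Slc2a1 it was -0.55 (rho -0.53), permutation p of 0.0122 and 0.0182, adjusted p of 0.0305 and 0.0477, and -0.41 without 2 libraries. With Cldn5 it was -0.44 (rho -0.51), permutation p of 0.0537 and 0.0225, adjusted p of 0.11 and 0.0506, and -0.64 without 2 libraries. Within series 1 and series 2 these 3 pairs gave -0.76 and -0.42, -0.65 and -0.50, and -0.83 and -0.22.

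High correlations were common for some members over the whole table. For Slc2a1 5% of the other 15659 genes had an r above 0.80, and none of the other 9 members did. For Cldn5 that value was 0.78 and for Tjp1 it was 0.69, with no member above either. For Flt1 it was 0.53 and 6 of the other 9 members lay above it, for Pecam1 0.44 with 5 members, and for Cdh5 0.57 with 4. The genes nearest to Cldn5 were Ndufv3, C1qb, Chtf8, Dad1 and Kars, with r of 0.92 to 0.93, and those nearest to Slc2a1 were Prodh, Szrd1, 1500032L24Rik, Dnajc11 and Slc39a7, with r of 0.92 to 0.93. None of these marks endothelium. Those nearest to Pdgfrb were Col18a1, Itpkb, Tln1, Pbxip1 and Acsf2, with r of 0.89 to 0.92.

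The members differ in the base composition of their transcripts. Cldn5 has the highest GC content of its longest transcript, 60.5%, which is above that of 96.5% of genes. Pdgfrb has 54.9%, Mfsd2a 54.2%, Slc2a1 54.0%, Cdh5 52.2%, Flt1 50.5%, Pecam1 50.2%, Tjp1 46.8%, Abcb1a 45.2% and Ocln 42.0%. A GC index was computed for each library as the mean log2 level of genes above the 80th percentile of transcript GC content minus that of genes below the 20th, each gene centred over the libraries and the members left out. It ran from -0.903 in the CD female E249 to 0.753 in the KD male E64. It averaged 0.256 ± 0.334 (SD) in series 1 and -0.256 ± 0.367 in series 2, and -0.125 ± 0.447 in females and 0.103 ± 0.409 in males.

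Slc2a1 followed the index with r of 0.88 (rho 0.85), both with a permutation p of 1e-05, the smallest that 100000 resamples can give, and an adjusted p of 0.0002 over 20 relations. It was 0.83 without the 2 libraries farthest from the median, 0.86 within series 1 and 0.90 within series 2. Cldn5 followed it with r of 0.81 (rho 0.80), adjusted permutation p of 0.0002 and 0.0005, and 0.79 without 2 libraries. Within the series Cldn5 had 0.74 and 0.87. Mfsd2a had r of 0.76 (rho 0.74), adjusted permutation p of 0.0006 and 0.0022, 0.66 without 2 libraries, and 0.75 and 0.77 within the series. Tjp1 went the other way, with r of -0.66 (rho -0.69), adjusted permutation p of 0.0049 and 0.00585, -0.50 without 2 libraries, and -0.78 and -0.58 within the series. Pdgfrb had r of 0.51 with an adjusted permutation p of 0.0494 and Abcb1a -0.50 with 0.051. All permutation p of the index share the limit given for the pairs, so these borderline values are uncertain. For Ocln, Pecam1, Flt1 and Cdh5 r lay between -0.32 and 0.31, with adjusted permutation p of 0.239 to 0.782. An index made in the same way from transcript length, with long minus short genes, had r of 0.71 with Tjp1, -0.69 with Slc2a1, -0.59 with Mfsd2a and -0.52 with Cldn5.

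**Figure D4:**
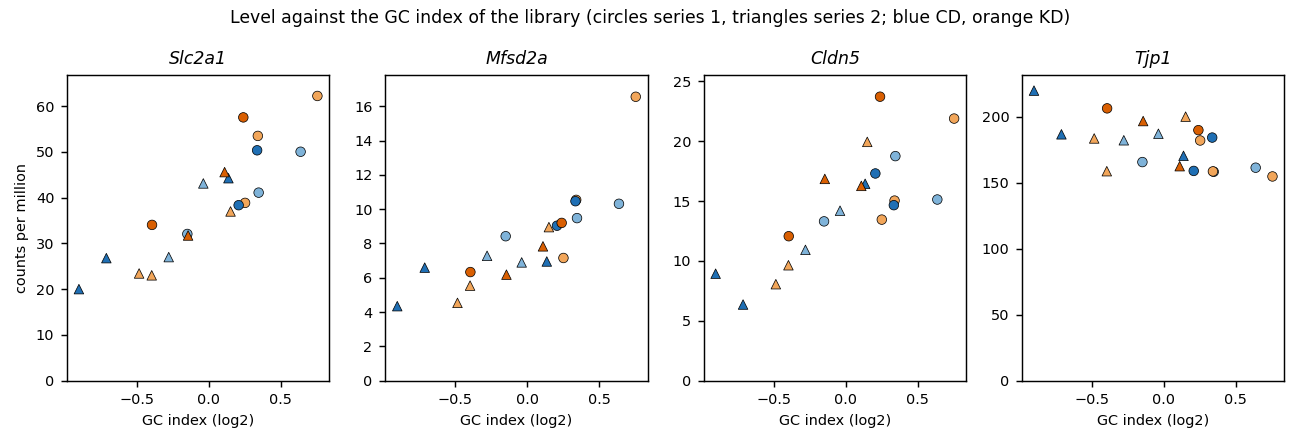
CPM (vertical axes from 0) of Slc2a1, Cldn5, Mfsd2a and Tjp1 against the GC index of the library (horizontal axis, log2 units) in the 20 libraries, with circles for library series 1 and triangles for series 2. Slc2a1, Cldn5 and Mfsd2a are higher and Tjp1 is lower in libraries of high index.

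With the index also removed, 41 of 45 pairs of members had an r above 0, with a median of 0.45 and a lowest value of -0.14. The r of Slc2a1 and Mfsd2a was then 0.37 and that of Slc2a1 and Cldn5 -0.09, from 0.69. Tjp1 and Slc2a1 had 0.09, and Tjp1 and Cldn5 0.24. Other pairs of Slc2a1 were higher, from 0.03 to 0.68 with Ocln, from 0.14 to 0.61 with Flt1 and from -0.21 to 0.57 with Abcb1a. Cldn5 and Pdgfrb kept 0.62, and Flt1 and Abcb1a 0.72. Among all genes 5% then had an r above 0.40 with Slc2a1, which 4 of the other 9 members exceeded, above 0.47 with Pecam1, exceeded by 7, and above 0.58 with Flt1, exceeded by 7. The genes nearest to Slc2a1 became Sdc4, Paqr5, Sult1a1, Ly6c1 and Rab21, of which Ly6c1 is a marker of brain endothelium, with r of 0.77 to 0.80. Those nearest to Pdgfrb became Zic1, of the pericyte list, Jam2, Prkcd, Pdlim5 and Trim56, with r of 0.92 to 0.94.

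**Figure D5:**
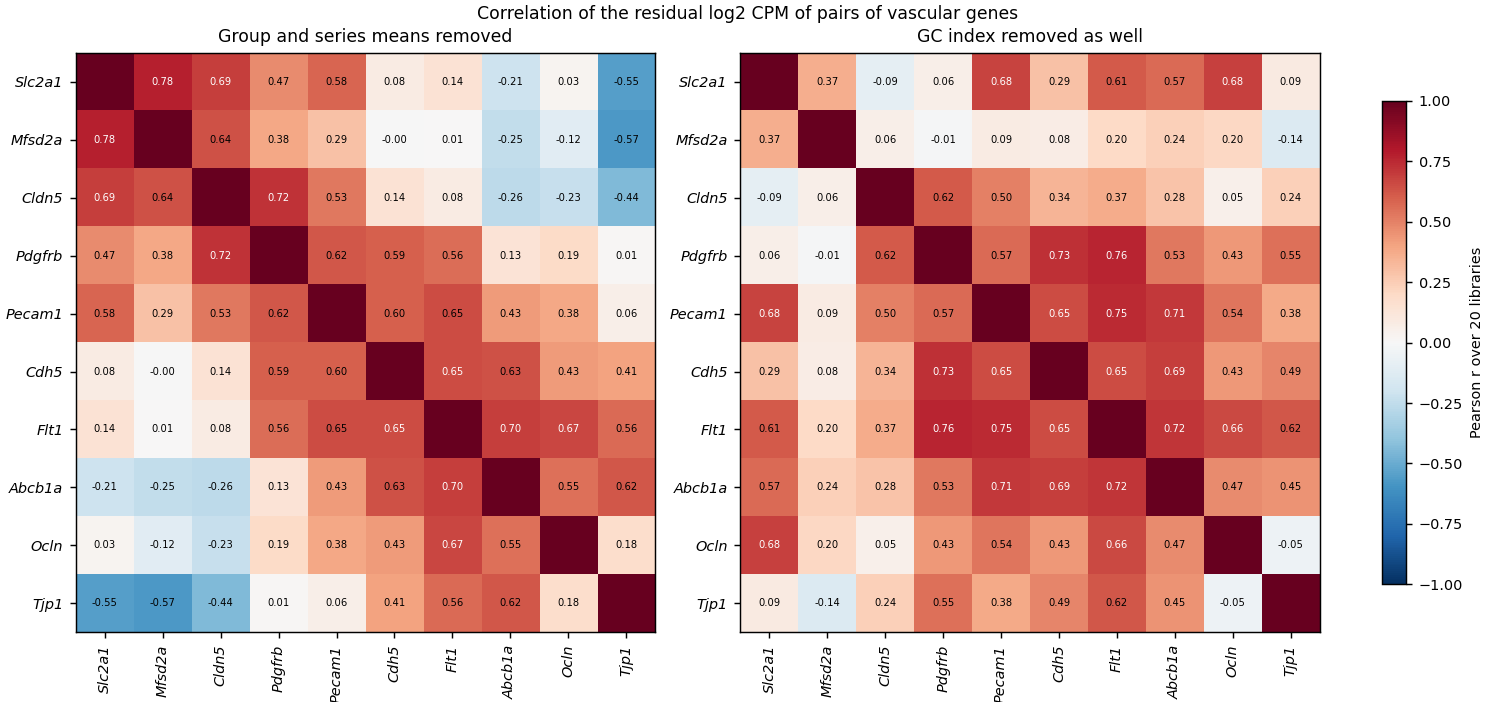
Pearson r between pairs of the 10 genes over 20 libraries (colour scale from -1 to 1), with group and series means removed in the left panel and the GC index removed as well in the right panel. The negative block of Tjp1 with Slc2a1, Mfsd2a and Cldn5 in the left panel is between -0.14 and 0.24 in the right panel.

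With the GC index as a covariate of the edgeR fit, the series difference of Slc2a1 was -0.03 with an unadjusted p of 0.749 and that of Mfsd2a was -0.16 with an unadjusted p of 0.253. No member was then called between the series at an unadjusted p under 0.05, beside 27.2% of genes. Between females and males, Cdh5 had 0.47, Flt1 0.24, Pecam1 0.28 and Abcb1a 0.26, with unadjusted p of 0.00599 to 0.0126, and Slc2a1 joined them with 0.19 and an unadjusted p of 0.0351. That made 5 of 10 members beside 13% of genes. Without E228 in that fit Slc2a1 had 0.17 with an unadjusted p of 0.0771, and the other 4 had unadjusted p of 0.00972 to 0.0237. The endothelial identity list had 7 of 25 genes higher at an unadjusted p under 0.05 and none lower with all libraries, and 6 and none without E228. No member was called for diet in females, beside 19% of genes, or in males, beside 6.29%, and Cldn5 in females had a log2 difference of 0.30 with an unadjusted p of 0.0799. What the index measures was not tested.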

How the data were processed

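Per the labels and the study's methods, total RNA from 10 mg of frozen cortex was made into stranded libraries, sequenced as 50-base pairs and aligned by the authors with STAR to mm10. The deposited values are raw counts per gene, made with the HTSeq counting built into STAR. The annotation, counted strand and versions are not given in the sources used here.

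Counts were fitted with edgeR 4.0.16 (R 4.3.3, limma 3.58.1), robust quasi-likelihood F test, upper-quartile scaling, filterByExpr, 4 groups plus library series, Benjamini-Hochberg over 15660 genes, threshold adjusted p 0.1 and 1.5-fold. The authors also named RUVg without factors or controls, so it served as an alternative with 1 factor, beside DESeq2 1.42.0. CPM are unscaled. Correlations used scaled log2 CPM (prior count 2), Python 3.11.15 and scipy 1.17.1, with 100000 permutations, two-sided. The permutations took no account of the group and series means fitted first. The test was checked on simulated data. Of the names, 21777 matched GENCODE M21, and 93.8% of genes with a mean count of 10 or more had a transcript for the indexes. Those indexes, and list counts with single libraries left out, were added after the data were seen. Shares of all genes at an unadjusted p under 0.05 are given for fits with all libraries only.

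All members are named. List genes are named if past the threshold or among the 2 of smallest p in a diet or series contrast, and those named between the sexes were chosen after their values were seen. Some genes that this rule names are not reported here. The members and lists were chosen with earlier results of these data known. Within groups, the 41 library pairs differed by a chi-square of 7.25 to 115 per degree of freedom, so no library was a copy of another in its group. Libraries of different groups were not compared in this way. Counts of a member ran from 53 to 5093 per library.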

Additional observations from a re-analysis of the deposited data

Results flagged for a closer look

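Of 40 sets of 4 to 6 libraries, 1 per member and group, 1 held a library far from the others, where 2 would be expected by chance at 5%. In CD males the library E264 had 54.5 CPM of Abcb1a, while the other 4 lay between 36.7 and 39.9 CPM, so that the gap took up 0.818 of the range. E264 also had the highest Flt1, Pecam1 and Cdh5 of that group, at 46.7, 28.2 and 7.41 CPM. Without it the sex difference of Abcb1a was 0.38 in log2 units and that of Cdh5 0.56.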

How the results depend on the processing

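No paired analysis was possible because the 4 groups share no replicate numbers. Members past the threshold stayed at 0 under every setting for diet in females and in males, the interaction, sex and library series. For diet over both sexes the other settings are not reported here. At an unadjusted p under 0.05, series 1 alone called 1 member in the female diet contrast and 1 in the interaction, and series 2 alone called 0 between the sexes. With all libraries 11.4%, 2.14% and 13.6% of genes had that p in these contrasts. The shares within a single series or with the length index are not reported here. Between the series the GC index left 0 and the length index 1. Leaving out 1 library gave 3 to 4 members between the sexes and 2 to 5 between the series. Between the series, with all libraries, 3049 of the 15660 genes were higher and 2881 lower at that p. Over all genes, the 7 past the threshold for diet in females became 0 without E61 and 1046 without E249, 253 with DESeq2, 105 with RUVg, 250 with the GC index, 337 with the length index, 865 in series 1 alone and 0 in series 2 alone. Fitting each sex alone gave 1, edgeR's likelihood ratio test 220, no filter 12 and no series term 4. The 21 between the sexes became 212 with DESeq2, 286 with the likelihood ratio test, 4 with at least 10 counts in every library, 76 in series 1 alone, 5 in series 2 alone, 7 to 10 with RUVg or an index, 8 without E58 and 813 without E227. The 1134 between the series became 690 with at least 10 counts in every library and 678 with the GC index, and the 0 of the interaction 14 in series 1 alone and 41 without E227. The causes were not tested.

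Small diet differences changed sign. In females, series 2 alone gave -0.051 for Ocln, -0.22 for Cdh5, -0.20 for Flt1, 0.16 for Mfsd2a and -0.32 for Abcb1a. Tjp1 was 0.0083 with at least 10 counts in every library, 0.019 with the GC index and 0.17 in series 1 alone. Flt1 was -0.0013 with DESeq2 size factors, -0.0046 without a filter and -0.0060 with the length index. In males, series 2 alone gave -0.0049 for Cldn5, -0.11 for Ocln, -0.25 for Cdh5, -0.33 for Slc2a1, -0.16 for Mfsd2a, -0.033 for Abcb1a and -0.15 for Pdgfrb, and series 1 alone gave 0.19 for Pecam1 and 0.067 for Flt1. Cldn5 was -0.00035 and Tjp1 0.0051 without the series term. RUVg gave -0.011 for Cldn5 and -0.0043 for Slc2a1. The GC index gave -0.070 for Cldn5, 0.0062 for Tjp1, -0.035 for Slc2a1 and -0.018 for Mfsd2a, and the length index -0.0058 for Ocln. The sex difference of Slc2a1 was -0.017 without the series term and -0.048 in series 1 alone. With the GC index removed the r of Tjp1 was 0.091 with Slc2a1 and 0.24 with Cldn5.

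Leaving out 1 library gave, for diet in females, -0.083 to 0.090 for Tjp1, -0.041 to 0.097 for Flt1, -0.012 to 0.31 for Slc2a1, -0.24 to 0.047 for Mfsd2a and -0.013 to 0.24 for Abcb1a. In males it gave -0.14 to 0.12 for Cldn5, -0.062 to 0.067 for Ocln, -0.042 to 0.023 for Tjp1, -0.063 to 0.14 for Pecam1, -0.12 to 0.015 for Flt1, -0.087 to 0.17 for Slc2a1 and -0.13 to 0.16 for Mfsd2a. The sex difference of Slc2a1 ran from -0.033 to 0.13.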

Other observations

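The pericyte and fibroblast lists had their highest summed levels in single libraries of both sexes. The 17 pericyte genes summed to 874 to 1741 CPM, highest in the KD male E64 and next in the KD female E61 with 1720 CPM, the libraries that also held the most Slc2a1. The 12 fibroblast and meningeal genes summed to 656 CPM in E64 and 483 CPM in the CD female E249. For diet over both sexes 0.268% of all genes passed the threshold. Of the 179 genes tested in the vascular lists only Agt, angiotensinogen of astrocytes, did. Its log2 difference, KD minus CD, was 1.64 with an adjusted p of 0.0973 by edgeR. In KD females it differed by 2.16 and in KD males by 1.11.

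Between the library series 7 of the 179 genes tested in the vascular lists passed the threshold, 3.91% beside 7.24% of all genes. Lower in series 2 were the Wnt co-receptor Lrp5, with a log2 difference of -0.96, the endothelial transcription factor Sox18, with -0.59, and the intermediate filament gene Des, with -1.02. Higher were the angiopoietins Angpt1 and Angpt2, with 0.75 and 0.67, Marveld2, of tricellular junctions, with 0.62, and Pln, a regulator of the calcium pump in muscle, with 1.09.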
